A study of Mus musculus with 2 samples.

Results

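The genes described here encode 9 dual-specificity MAP kinase phosphatases of the mouse: Dusp1, Dusp2, Dusp4 and Dusp5, which sit in the nucleus and are switched on by stimuli, Dusp6 and Dusp7, which act on ERK in the cytoplasm, Dusp10 and Dusp16, which prefer JNK and p38, and the small Dusp3. The members were chosen by name, and every non-control probe was taken whose current gene symbol is in that list. All 9 genes had a probe, 11 probes in all, among 27053 named genes, and all 9 were well above background in both pools on both arrays, as part of the 15615 genes that could be measured. The colon pool held CX3CR1high CD11b+ CD11c+ cells isolated from the large-intestinal lamina propria of CX3CR1gfp/+ mice, in which a green fluorescent protein gene takes the place of an allele of the fractalkine receptor gene. The blood pool held Ly6c+ CD11b+ monocytes of C57BL/6J mice. Both are pooled, with no treatment named and no age given in the labels, and the submitters state n = 10 (colon) and n = 6 (blood), where the unit of n is not said. Tissue, strain background, gate and isolation all differ between the pools and cannot be told apart.

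Both pools were labelled from 25 ng of total RNA and hybridised together to 2 two-colour whole-genome arrays with the dyes swapped, so that the arrays are 1 replicate of 1 pair of pools. No p-value was computed, and each SD is over the 2 arrays and covers technical error alone. Values are normalized intensities, in the arbitrary linear units of the scanner, and log2 ratios, with the colon pool in the numerator and the blood pool in the denominator. The size rule called a gene higher or lower where both arrays put the pools 2-fold or more apart in 1 direction and the scanner software marked the brighter pool as well above background on both. The design has 1 pool of each kind, so it says nothing about the spread between animals. In pooled RNA, more cells of a type and more RNA per cell cannot be told apart.

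MAP kinases are switched on when upstream kinases add phosphate to a threonine and a tyrosine of their activation loop, and the dual-specificity phosphatases remove both. Several of these phosphatase genes are themselves transcribed in response to active ERK, JNK or p38, which makes them part of negative feedback loops. In macrophages Dusp1 is best known for limiting p38 signalling and with it the output of inflammatory cytokines, and its transcription is raised by glucocorticoids.

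Promoter sequence is shown for the members whose ratio passed the size rule and that have an entry in the RefSeq table, and for Dusp1 as the inducible member that did not pass. Each line gives the 250 bases before the RefSeq start on build GRCm38.p6, with matches to the searched motifs in capitals. Dusp5 lies at chr19:53528895-53529144 on the plus strand, Dusp2 at chr2:127335909-127336158 on the plus strand, Dusp16 at chr6:134792629-134792878 on the minus strand, Dusp6 at chr10:99262981-99263230 on the plus strand and Dusp1 at chr17:26508473-26508722 on the minus strand.
Dusp5: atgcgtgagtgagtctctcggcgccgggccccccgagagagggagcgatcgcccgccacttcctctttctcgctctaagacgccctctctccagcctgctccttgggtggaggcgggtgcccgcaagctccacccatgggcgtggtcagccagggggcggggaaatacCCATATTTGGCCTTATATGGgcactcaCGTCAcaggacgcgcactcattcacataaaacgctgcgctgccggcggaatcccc
Dusp2: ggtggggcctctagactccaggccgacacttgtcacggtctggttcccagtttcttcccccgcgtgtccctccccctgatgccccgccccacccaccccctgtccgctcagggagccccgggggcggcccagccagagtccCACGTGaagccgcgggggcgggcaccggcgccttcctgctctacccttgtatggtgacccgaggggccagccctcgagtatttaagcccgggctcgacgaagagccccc
Dusp16: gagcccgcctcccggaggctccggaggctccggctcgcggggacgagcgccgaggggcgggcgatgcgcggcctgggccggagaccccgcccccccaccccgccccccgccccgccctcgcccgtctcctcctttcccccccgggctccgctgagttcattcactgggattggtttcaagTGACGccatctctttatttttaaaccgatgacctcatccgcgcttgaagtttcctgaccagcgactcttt
Dusp6: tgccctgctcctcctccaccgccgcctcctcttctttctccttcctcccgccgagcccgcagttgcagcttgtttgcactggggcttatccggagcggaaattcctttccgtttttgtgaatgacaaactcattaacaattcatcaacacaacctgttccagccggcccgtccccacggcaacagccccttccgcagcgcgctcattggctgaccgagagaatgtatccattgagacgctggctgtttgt
Dusp1: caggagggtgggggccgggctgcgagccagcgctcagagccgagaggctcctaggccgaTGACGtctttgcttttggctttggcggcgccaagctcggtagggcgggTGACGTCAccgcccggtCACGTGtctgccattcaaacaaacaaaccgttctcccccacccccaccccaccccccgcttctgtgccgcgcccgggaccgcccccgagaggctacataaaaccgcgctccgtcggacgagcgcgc

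The motifs searched, on both strands, were the full cAMP response element TGACGTCA, its core TGACG, the AP-1 site TGANTCA, the E-box CACGTG, the TATA box letters TATAAA, the ETS core CCGGAA, the CArG box that binds serum response factor, and the NF-kB consensus. The full cAMP response element contains the core on both strands, so these matches overlap. The Dusp5 window held 2 CArG boxes side by side, from 82 to 73 and from 72 to 63 bases before the start, and a core of the cAMP response element from 55 to 51 bases before it. A CArG box was present in 1.47% of 32851 promoter windows of the same length. The Dusp1 window held a full cAMP response element 143 to 136 bases before the start, found in 1.55% of windows, a separate core 191 to 187 bases before it, and an E-box from 126 to 121. The Dusp2 window held an E-box 109 to 104 bases before the start, which 6.02% of windows had. The Dusp16 window held a core of the cAMP response element 70 to 66 bases before the start, as 17.8% of windows did. The Dusp6 window held none of these letters, and neither did those of Dusp3, Dusp7 and Dusp10. AP-1 sites, TATAAA, ETS cores and NF-kB consensus matches were in 6.75%, 12.4%, 12.0% and 3.9% of all windows and in none of the 8 members' windows. These matches are letters in a window and say nothing of binding.

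Of the 9 phosphatase genes, 4 were at least 2-fold higher in the colon pool on both arrays (Dusp4, Dusp5, Dusp2 and Dusp16), 1 was at least 2-fold lower (Dusp6) and 4 passed in neither direction (Dusp1, Dusp3, Dusp7 and Dusp10). Among all 15615 measured genes, 18.7% passed the rule in either direction, 14.2% as higher and 4.48% as lower. The median ratio of the 9 genes was 0.39 on the log2 scale, beside 0.06 over all measured genes. Of the genes that passed, 76.1% were higher in the colon pool, and with the scanner software's own ratios this share was 60.5%. The shares are given as background and were not tested against the 9 members.

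**Figure D1:**
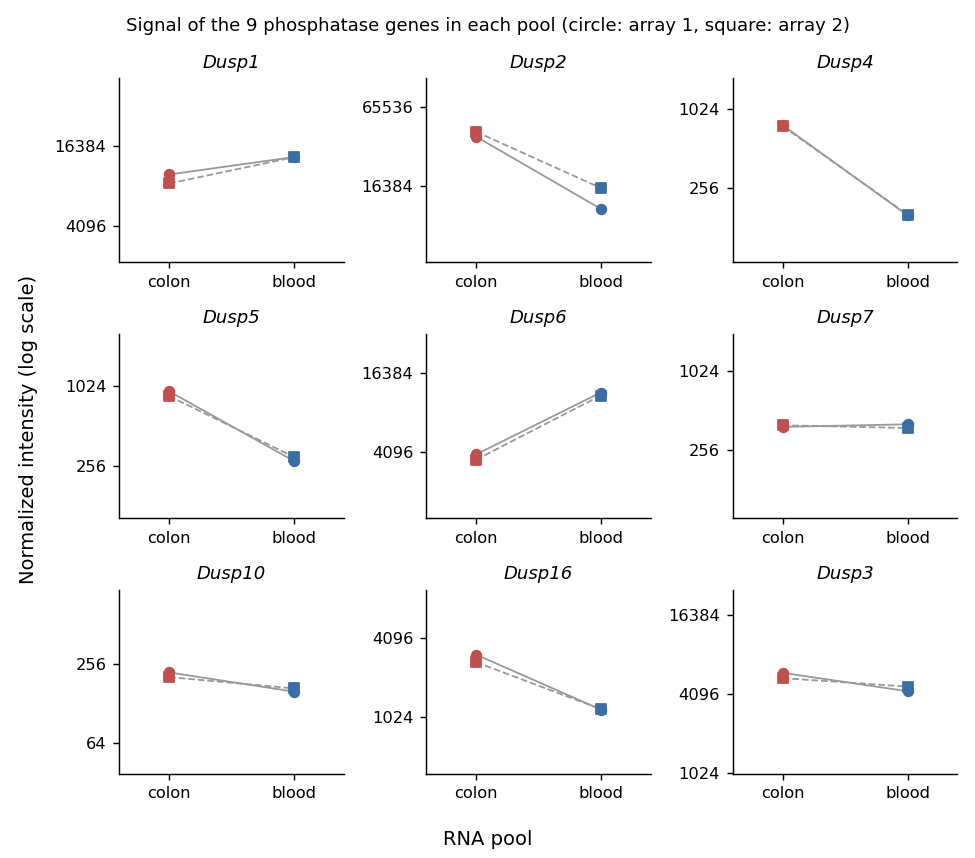
Normalized intensity (log scale) of the brightest probe of each phosphatase gene in the colon pool and the blood pool; circles are array 1, squares are array 2, and lines join the pools of an array. Each panel spans the same fold range, Dusp4, Dusp5, Dusp2 and Dusp16 slope down toward blood and Dusp6 slopes up, and heights are not comparable between panels because each gene has its own probe.

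The first group comprises the nuclear phosphatases that are induced by growth factors and stress. Dusp4 had the highest ratio of the 9 members. This nuclear phosphatase acts on ERK, JNK and p38. Its signal was 767.5 and 755.1 in the colon pool on arrays 1 and 2, against 158.4 and 160.3 in the blood pool. The colon values lay far above the blood values on both arrays, at 4.78-fold, or 2.26 ± 0.03 on the log2 scale, and 5.29% of measured genes had a higher ratio. The probe maps to chr8:35882045-35882104 on the plus strand of build mm9, per the file.

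Dusp5, a nuclear phosphatase that is selective for ERK and also anchors it there, came next. Its signal was 940.1 and 864.3 in the colon pool, against 277.4 and 297.7 in the blood pool. The pools did not overlap, the ratio was 1.65 ± 0.16 (3.14-fold), and 8.83% of measured genes had a higher one. Its probe is at chr19:53615682-53615741 on the plus strand of mm9, and its promoter is the window with 2 CArG boxes above.

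Dusp2, first described in activated lymphocytes and common in cells of the blood lineage, gave signals of 38743 and 42188 in the colon pool, against 10918 and 15741 in the blood pool. The ratio was 1.83 on array 1 and 1.42 on array 2, a mean of 1.62 ± 0.29 (3.08-fold), and 8.99% of measured genes lay above it. This was the widest gap between the arrays among the 9 members, and the lower ratio was still past 2-fold. Its probe is at chr2:127163930-127163989 on the plus strand of mm9.

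Dusp1 stood apart from the other inducible members. It gave 10019 and 8559 in the colon pool, against 13604 and 13557 in the blood pool. Both colon values were below both blood values, but the ratio of -0.55 ± 0.16 (1.47-fold lower) did not reach 2-fold on either array. Under median centring the mean was -1.32, with -0.10 and -2.55 on arrays 1 and 2, so that only array 2 went past 2-fold. Its probe lies on the minus strand of mm9, where the file gives the 11 bases chr17:26642526-26642536. Thus 3 of the 4 inducible nuclear members were higher in the colon pool, with a median ratio of 1.64, and the fourth was on the other side of 0.

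**Figure D2:**
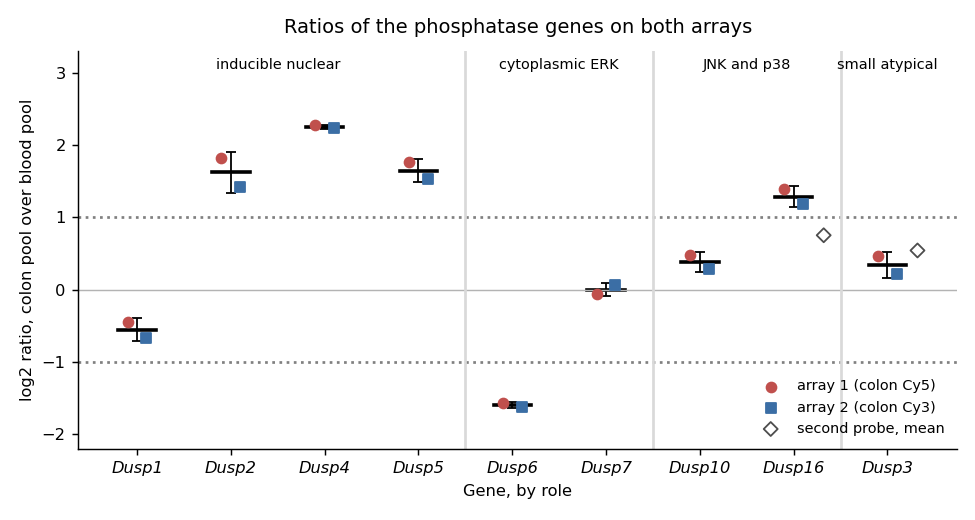
Ratio (log2, colon over blood) for each phosphatase gene, ordered by role; circles and squares are arrays 1 and 2, bars are the mean, error bars the SD over the 2 arrays, diamonds the mean of another probe of the gene, and dotted lines 2-fold. Dusp4 (2.26) is highest and Dusp6 (-1.60) lowest, and arrays 1 and 2 lie close together for both.

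Dusp6 was the only member that passed in the lower direction. It is the cytoplasmic phosphatase that binds ERK and is a standard read-out of ERK activity, since ERK signalling induces it. Its signal was 3898 and 3552 in the colon pool, against 11546 and 10954 in the blood pool. Every colon value was below every blood value, the ratio was -1.60 ± 0.04 (3.02-fold lower), and 2.08% of measured genes had a lower one. Its probe is at chr10:98729985-98730044 on the plus strand of mm9, and its promoter window held none of the searched motifs.

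Dusp7, the close relative of Dusp6 in the cytoplasm, showed no such difference. Its signal was 385.9 and 396.6 in the colon pool, against 403.7 and 378.2 in the blood pool. The values overlapped and the ratio was 0.00 ± 0.09, with opposite signs on the arrays. The sign is not fixed by the processing, since the mean was -0.31 with the software's ratios and -0.48 under median centring. The probe is at chr9:106277985-106278044 on the plus strand of mm9. After loess, the ratios of these 2 cytoplasmic ERK phosphatases differed from each other by more than either varied between arrays. Under median centring this did not hold, with -1.26 and -3.43 for Dusp6 on arrays 1 and 2. Dusp7 then had 0.20 and -1.15, and Dusp6 was still below Dusp7 on each array.

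Dusp16, a phosphatase of JNK and p38, was measured by 2 probes on the minus strand of mm9. The brighter, at chr6:134665783-134665842, gave 3040 and 2658 in the colon pool, against 1159 and 1170 in the blood pool, a ratio of 1.29 ± 0.15 (2.44-fold). The dimmer, at chr6:134668003-134668062, gave 211.6 and 216.0 in the colon pool, against 132.0 and 121.7 in the blood pool, a ratio of 0.75 ± 0.10 (1.69-fold). Both probes were higher in the colon pool on both arrays, and only the brighter passed 2-fold. The mean of both probes was 1.02, at 1.04 and 1.01 on the arrays, and passed by a narrow margin.

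Dusp10, which also acts on JNK and p38, was closer between the pools. It gave 219.9 and 202.5 in the colon pool, against 157.0 and 166.2 in the blood pool. The colon values were above the blood values on both arrays, with a ratio of 0.39 ± 0.14 (1.31-fold) that did not pass. Its probe is at chr1:185898608-185898667 on the plus strand of mm9.

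Dusp3 encodes a small phosphatase without the kinase-binding domain of the other members. The brighter of its 2 probes, at chr11:101832460-101832519 on the minus strand of mm9 and assigned to an Ensembl transcript, gave 5965 and 5434 in the colon pool, against 4321 and 4687 in the blood pool. Its ratio was 0.34 ± 0.18 (1.27-fold). The other probe, at chr11:101835524-101835583 on the same strand, gave 2190 and 2153 in the colon pool, against 1528 and 1452 in the blood pool, a ratio of 0.54 ± 0.03 (1.46-fold). Neither probe passed, and the ratio of the brighter was -0.40 under median centring.

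**Figure D3:**
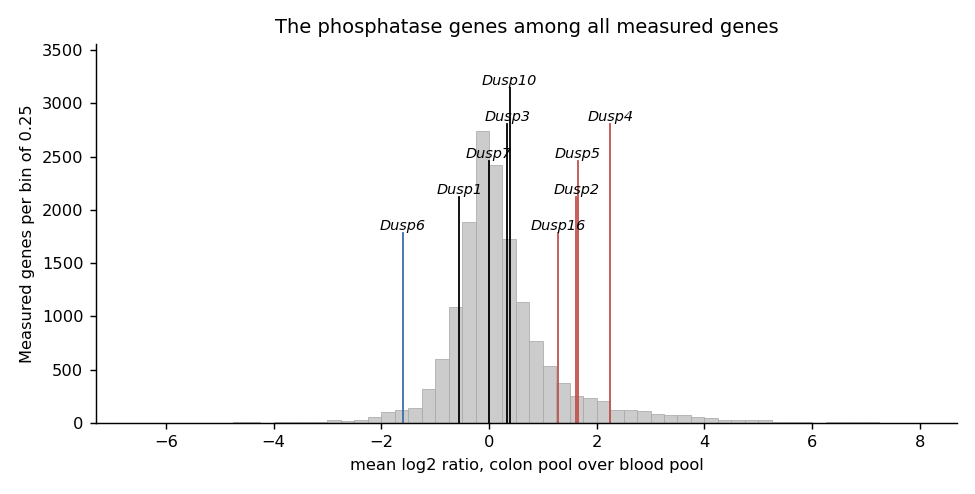
Histogram of the mean log2 ratio (colon pool over blood pool) of all 15615 measured genes in bins of 0.25, with the 9 phosphatase genes marked; red lines passed as higher, the blue line as lower, and black lines did not pass. Dusp7 (0.00), Dusp3 (0.34), Dusp10 (0.39) and Dusp1 (-0.55) fall in the central mass and the other members lie outside it; the heights of the lines carry no value.

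The dye had a visible part in the signals before normalization. Dusp4 was brighter in the colon pool on both arrays without any normalization, at 938.3 and 416.9 in the colon pool, against 126.1 and 244.6 in the blood pool. Dusp6 was dimmer in the colon pool on both arrays, at 4896 and 1603 in the colon pool, against 9875 and 21970 in the blood pool. For the other 7 genes the pool labelled with Cy5 was the brighter on both arrays. For Dusp2 these values were 50598 with Cy5 and 17376 with Cy3 in the colon pool, against 9256 with Cy3 and 32936 with Cy5 in the blood pool. The direction of those 7 genes can be read only after the dyes are balanced. After loess, 8 of the 9 genes had the same sign on both arrays, and 8 of the 9 had the higher ratio on array 1.

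**Figure D4:**
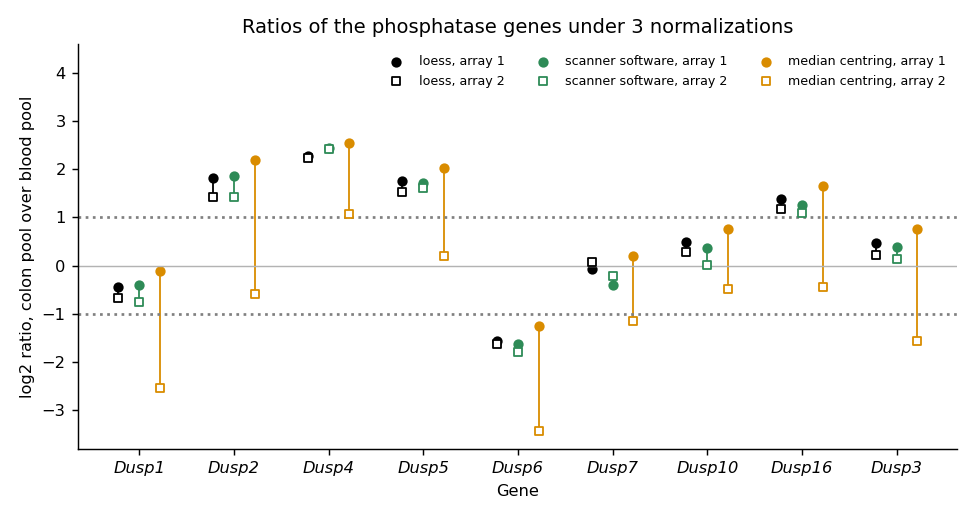
Ratio (log2, colon over blood) for each phosphatase gene on arrays 1 (filled circles) and 2 (open squares) under loess, the scanner software's ratios and median centring, with dotted lines at 2-fold. Loess and the software place the arrays close together, while median centring spreads them, for Dusp2 to 2.20 and -0.58.

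With the software's ratios the same 5 genes passed, at 2.43 for Dusp4, 1.67 for Dusp5, 1.64 for Dusp2, 1.17 for Dusp16 and -1.71 for Dusp6. With median centring in place of loess only Dusp4 (1.80) and Dusp6 (-2.34) passed. Dusp5, Dusp2 and Dusp16 then had means of 1.11, 0.81 and 0.61 and failed on array 2. Median centring moved the median of all measured genes to -0.28, so that these 3 lay at 1.39, 1.09 and 0.89 above it.

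The other genes of the pathway were taken from 11 lists with 133 members, of which 114 were measured. Of these, 35 were higher in the colon pool, 6 were lower and 73 passed in neither direction, with a median ratio of 0.11 beside 0.06 over all measured genes. Over all measured genes 14.2% were higher and 4.48% lower, and 6 of 114 is near that share of lower genes. Most of the 35 belonged to the ERK feedback and target genes, the mRNA decay targets and the heat shock genes, and few to the kinases.

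Among the other dual-specificity phosphatases 12 of 19 were measured, with 2 higher, 1 lower and a median of -0.07. Dusp14, a small atypical phosphatase, gave 298.3 and 248.1 in the colon pool, against 79.15 and 66.41 in the blood pool, where it was not well above background on either array, so that it was at least 3.75-fold higher after loess. Such a bound compares the colon signal with the higher of the blood signal and the dimmest signal well above background in that channel. For Dusp14 the value was the measured ratio itself, 1.91 on the log2 scale, and median centring gave 1.80. Dusp8, a phosphatase of JNK and p38, gave 199.1 and 196.8 in the colon pool, against 86.1 and 71.2 in the blood pool by its brighter probe, whose blood signal cleared the background flag on only 1 of the 2 arrays. That ratio was 1.34 ± 0.18, or 2.84 by the software, so its size is uncertain, and the other probe had -0.16. Dusp22, an atypical phosphatase of the JNK pathway, was lower at -1.42 ± 0.14, with -0.88 by its other probe. Of the other phosphatases known to act on MAP kinases 8 of 9 were measured and none passed. Their median was 0.05, and it turned below 0 with the software's ratios and under median centring. The brightest were the catalytic subunits of protein phosphatase 2A, Ppp2ca at 0.53 ± 0.01 and Ppp2cb at -0.75 ± 0.18.

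The kinases that these phosphatases oppose were mostly within 2-fold. Of 11 measured MAP kinases 1 was higher and 1 lower, with a median of -0.07. Mapk6, an atypical MAP kinase, was higher at 1.53 ± 0.12, also by another probe at 1.53, while a dimmer probe had 0.62. Mapk14, which encodes p38 alpha, was lower at -1.04 ± 0.01, with -0.69 by its other probe.

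Of 7 MAP2 kinases, which phosphorylate the MAP kinases, Map2k3, an activator of p38, was higher at 1.36 ± 0.05 and Map2k1, an activator of ERK, was lower at -1.11 ± 0.02, with a list median of -0.08. Of 17 measured MAP3 kinases of 20 only Map3k11, which acts upstream of JNK, passed, at -1.20 ± 0.16, and the list median was -0.17. Of 10 measured kinases downstream of MAP kinases only Rps6ka1, a ribosomal S6 kinase activated by ERK, passed, at -1.46 ± 0.28, and the list median was -0.10.

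In the list of other feedback inhibitors of the ERK pathway, which was drawn up by name, 6 of 8 measured members of 11 were higher and none lower. Their median was 2.07, and it was 1.12 over all 11 members with no filter on dim probes, 2.90 with the software's ratios and 1.53 under median centring. Errfi1, which inhibits the EGF receptor, gave 19030 and 18930 in the colon pool, against 1039 and 1224 in the blood pool, a ratio of 4.07 ± 0.17. The ratios of the early response gene Ier3 and of Spred1, an inhibitor of Ras to Raf signalling, were 3.15 ± 0.30 and 2.70 ± 0.12. Pebp1, also among the 6, had 1.45 ± 0.37 by its brighter probe and 0.97 by the other, which did not pass. What each listed gene does to ERK in these cells was not tested. Dusp6 stood on the other side of 0 from these genes.

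Among transcriptional targets of the ERK pathway 9 of 15 measured members were higher and none lower, with a median of 1.87. Etv5, an ETS factor, gave 4577 and 3976 in the colon pool, against 240.4 and 261.3 in the blood pool, a ratio of 4.09 ± 0.23. Egr2, a zinc finger factor, and Phlda1 had ratios of 3.34 ± 0.04 and 3.34 ± 0.10. The immediate early genes were not alike. Fos at -0.40 ± 0.27, Ier2 at -0.59 ± 0.07 and Atf3 at -0.18 ± 0.10 did not pass. Nor did Junb at 0.13 ± 0.07 and Btg2 at 0.17 ± 0.15. Fosb at 2.48 ± 0.09, Egr1 at 1.99 ± 0.17 and Fosl1 at 1.89 ± 0.08 passed as higher. So did Jun at 1.87 ± 0.11 and Myc at 1.46 ± 0.11. These immediate early genes were named after their values were seen.

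Of 10 genes of AU-rich mRNA decay and p38 signalling 7 were higher and 1 was lower, and the median ratio was 2.68. The chemokine gene Cxcl1 gave 24860 and 23740 in the colon pool, against 182.9 and 207.3 in the blood pool, a ratio of 6.96 ± 0.17. The cytokine genes Il10 and Il6 had ratios of 5.29 ± 0.11 and 4.98 ± 0.13. Zfp36l2, which promotes decay of such mRNAs, was lower at -2.40 ± 0.27. The related Zfp36l1 was higher at 2.49 ± 0.17, and Zfp36 at 0.08 ± 0.04 did not pass. Zfp36l1 and Zfp36 were named after their values were seen. Of 7 glucocorticoid-induced genes none passed, and the median was -0.38. The brightest were Cebpd, a C/EBP factor, at 0.81 ± 0.03 and Tsc22d3, the leucine zipper gene GILZ, at -0.72 ± 0.20. The Dusp1 ratio of -0.55 lay within the range of this list, -1.04 to 0.81. So did those of Dusp3 (0.34), Dusp7 (0.00) and Dusp10 (0.39), so the range does not set Dusp1 apart. A link of Dusp1 to glucocorticoids was not tested.

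**Figure D5:**
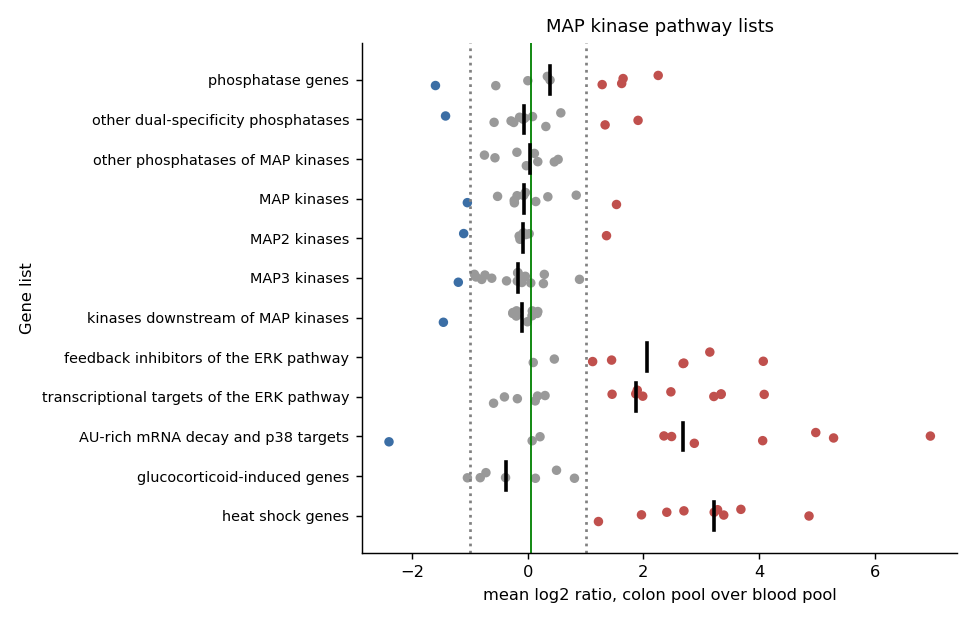
Mean log2 ratio (colon pool over blood pool) of each measured gene of the phosphatase set and of 11 pathway lists; red points passed as higher, blue as lower, grey in neither direction, black bars are list medians, dotted lines 2-fold and the green line the median of all measured genes (0.06). The kinase lists centre near 0, while the ERK feedback (2.07), ERK target (1.87), mRNA decay (2.68) and heat shock (3.22) lists lie to the right; under median centring the kinase medians were -0.42 to -0.79 and the ERK target median 1.07.

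Stress genes and markers of other cells moved in the same comparison. All 9 measured heat shock genes were higher in the colon pool, with a median of 3.22, led by Hspa1a at 4.86 ± 0.20, Hsp90aa1 at 3.69 ± 0.00 and Hspb1 at 3.39 ± 0.02, and their summed signal was 308848 and 355858 in the colon pool, against 51419 and 61710 in the blood pool. All 8 fibroblast and smooth muscle markers were higher, with a summed signal of 117965 and 127069 in the colon pool, against 1947 and 1918 in the blood pool, where Pdgfra was not well above background. Epithelial markers were higher in 6 of 8 and summed to 6518 and 5683 in the colon pool, against 859 and 710 in the blood pool, where Epcam, Krt19, Krt20 and Vil1 were not well above background. T cell markers were higher in 6 of 8 and summed to 6639 and 5530 in the colon pool, against 1330 and 974 in the blood pool, where Cd3g was not well above background. B and plasma cell markers were higher in 5 of 6 measured and summed to 33852 and 34940 in the colon pool, against 2299 and 2369 in the blood pool, where Cd79a was not well above background. Pax5 was well above background in neither pool. Endothelial markers were higher in 2 of 7 and summed to 4851 and 4754 in the colon pool, against 1855 and 1626 in the blood pool, where Cdh5, Tek and Tie1 were not well above background. Neutrophil markers were lower in 2 of 7 measured and summed to 1106 and 1073 in the colon pool, against 6128 and 6139 in the blood pool, with a median ratio of -0.27, and Ngp was well above background in neither. Most of that sum in the blood pool was Mmp8, without which the markers summed to 972 and 895 in the colon pool, against 1185 and 1267 in the blood pool. The part of these cells and of the stress genes in the ratios of Dusp2, Dusp4, Dusp5, Dusp6 and Dusp16 was not tested.

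The labels of the pools were checked against the genes of the surface markers they name and other defining markers. Itgax, which encodes CD11c, had a ratio of 3.35 ± 0.08 and Ly6c1 of -3.28 ± 0.09. Cx3cr1 and Itgam, which encodes CD11b, differed little, at 0.10 ± 0.25 and -0.46 ± 0.33, and all 4 were well above background in both pools. Cx3cr1 is the fractalkine receptor gene, of which an allele is replaced in the mice of the colon pool. The part of this genotype in its ratio was not tested. Of 12 markers of colon macrophage-like cells 9 were higher, with a median of 3.93, and of 7 measured markers of blood monocytes 5 were lower, with a median of -3.90. The colon marker Fcgr1 had -0.62 ± 0.10 and the monocyte marker Csf1r 0.95 ± 0.34. Each lay on the other side of 0 from its list's median, and neither passed. The share of spots well above background ranged from 52.9% to 59.6% over the pools and arrays, and no spot was saturated.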

How the data were processed

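Total RNA of both pools was amplified from an oligo-dT primer and labelled with Cy3 or Cy5, per the labels' protocols. The deposited scanner files give the mean and local background intensity of each of 44397 spots in both channels, not normalized, and a log10 ratio (red to green) that the software had already dye-normalized, per the file headers. Feature Extraction is version 10.7.3.1 per the file headers and 10.5.1.1 per the submitters' processing notes. The series' deposited table equals those log10 ratios turned to colon over blood, within 4.81e-08, with medians of 0. A batch test was not possible, as both arrays share 1 slide and 1 scan time.

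The background correction was normexp with an offset of 50 over all spots, followed by loess within each array, in which control and outlier spots had weight 0 (limma 3.58.1, R 4.3.3). The normalized intensities given here were also scaled between arrays by Aquantile, which gives both arrays the same distribution of mean intensity. Their closeness between arrays rests in part on this step, which leaves the ratios unchanged. Spots of a probe were averaged, and the probe of highest mean intensity stood for a gene. The ratio of array 2 was turned, and genes count as measured if, on both arrays, 1 pool (the same) stood well above background. The offset of 50 compresses ratios of dim genes, since the median spot intensity was 64.2 to 96.6 over a background of 40.5 to 43. Of 39429 probes 26055 were named by RefSeq accession, 8652 by the file and 4722 not at all. Promoters are RefSeq's on GRCm38.p6 (8 of 9 members matched) and probe positions are the files' on mm9. Exon and UTR annotation of mm9 was not used here. The method was tested on simulated arrays.

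The members and lists were chosen with earlier results of these data known. All members are named, and of each list the 3 highest and 3 lowest that passed, or the 2 brightest where none did. Alternatives varied the background step (none, or an offset of 16), the scaling (median centring, Aquantile), the source of ratios (software, deposited table), the probes (their mean), the filter on dim probes, the arrays (each alone) and the threshold (1.5-fold, 4-fold).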

Additional observations from a re-analysis of the deposited data

How the results depend on the processing

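Counts of phosphatase genes and of pathway genes stayed within 1.5 times those reported under no background correction, an offset of 16, Aquantile scaling, the mean over probes, both other filters on dim probes and each array alone. Some of these settings could not lower the counts. Aquantile scaling leaves the ratios unchanged, and each array alone keeps every gene that passed on both. The phosphatase genes were well above background in both pools, so the filters on dim probes could not change their counts. Median centring left 2 phosphatase genes past the rule (1 higher) and 25 pathway genes (21 higher). The software's ratios and the deposited value table gave 10 lower pathway genes, and a 1.5-fold threshold gave 13. A 4-fold threshold left 1 phosphatase gene, Dusp4 (1 higher, 0 lower), and 24 pathway genes (23 higher, 1 lower). Over all measured genes 2221 were higher and 699 lower, with 1137 and 558 under median centring, 3166 and 2070 with the software's ratios or the deposited table, 3485 and 1719 at 1.5-fold and 953 and 130 at 4-fold. The mean ratio of no called phosphatase gene turned sign under any of these. On array 2 alone, median centring gave -0.58 for Dusp2 and -0.45 for Dusp16. Median centring put the median of all measured genes at -0.28 and shifted the list medians with it: to -0.42, -0.47, -0.79 and -0.69 for the MAP, MAP2, MAP3 and downstream kinases, to 1.53 for the ERK feedback inhibitors, 1.07 for the ERK targets, 1.99 for mRNA decay and p38 targets and 2.42 for the heat shock genes. With the software's ratios those medians were -0.35, -0.37, -0.41 and -0.29 for the kinases and 2.90, 1.91, 2.65 and 3.25 for the other lists, at an all-gene median of -0.12. The cause of the shift under median centring was not tested. The ranges over alternatives were 1.80 to 2.56 for Dusp4, 1.11 to 1.81 for Dusp5, 0.81 to 1.83 for Dusp2, 0.61 to 1.39 for Dusp16, -2.34 to -1.57 for Dusp6 and -1.32 to -0.44 for Dusp1. No paired analysis was possible because both arrays measure the same pair of pools, and with 1 replicate the precision is that of the arrays alone.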

Other observations

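On neither array was the blood signal of 6 measured pathway genes well above background. For 5 of them the deposited log10 ratios, turned to log2, exceeded the ratios after normexp by more than 2. Dusp14 had 4.54 against 1.91, Mapk12 3.63 against 0.84, Spry2 3.09 against 0.46, Ptprr 2.97 against 0.46 and Mapk10 2.64 against 0.35. The sixth, Rps6ka2, had 0.95 against 0.08. After loess, the bounds of those 5 were at least 3.75-fold, 1.79-fold, 1.36-fold, 1.31-fold and 1.23-fold higher in the colon pool. For Dusp14 and Mapk12 the value was the measured mean itself, as it was for Rps6ka2 at 1.06-fold. The ratios of Rps6ka2 were 0.22 and -0.07 on arrays 1 and 2, so its direction was not fixed. Map3k10, above background in the blood pool on 1 array, had -0.13 against -0.04. These genes were chosen after their values were seen.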
